A study of Mus musculus with 2 samples.

Results

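Vomeronasal receptor genes were read in a table of captured testis DNA from 1 Kaiso knockout and 1 wildtype library. They were taken as the mouse protein-coding genes whose symbols start with Vmn1r or Vmn2r. A member needed at least 1 listed 100 bp window within its gene span plus 1 kb on each side. Of 231 Vmn1r genes 46 met this, and of 124 Vmn2r genes 76, so that 122 of 355 were members, among 19846 protein-coding genes with a listed window in all. The knockout library came from the testis of a male labelled Kaiso KO, generation 3 offspring and sterile, and the wildtype library from a wildtype testis. Both animals were C57BL/6. Kaiso, the product of Zbtb33, recognises methylated DNA through zinc fingers. The free text on the knockout sample also calls its testis wildtype, so its group rests on the genotype label. Neither the deleted part of the allele nor the age of the animals was given in the sources used here.

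Vomeronasal receptors detect pheromones and other social chemical signals in sensory neurons of the vomeronasal organ. Vmn1r genes encode receptors with a short outer end, each from a single coding exon, and couple to the G protein subunit of Gnai2. Vmn2r genes are longer, with several coding exons and a large outer domain, and couple to that of Gnao1. Both families lie in tandem clusters with many near-identical copies and pseudogenes. Testis is not the tissue these receptors are known for. The value read here is methylated DNA and not RNA.

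Fragments were pulled down with the methyl-CpG binding domain of MBD2, so a count grows with both the number of methylated CpGs and their methylation level. The libraries held 98549116 knockout and 87710791 wildtype reads. The deposited table lists 2537435 windows, each with a deposited unadjusted p under 0.05, and was therefore selected for difference between the libraries. A gene without a listed window is not shown to be unchanged or unmethylated. The gene span of Zbtb33 plus 1 kb had 83 knockout and 303 wildtype counts in 16 windows, which checks the label only weakly, since the deleted part is not known. With 1 library per genotype there is no replicate check and no test. Intervals are exact Clopper-Pearson 95% intervals, and they cover counting error only. In whole testis a change in the mix of cell types and a change of methylation within cells cannot be told apart.

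Listed windows were sparse in both families. Vmn1r genes had 0.202 listed windows per kb of region and Vmn2r genes 0.284, against 1.21 over all protein-coding genes. The median annotated span was 924 bp in Vmn1r, 24392 bp in Vmn2r and 17169 bp over all protein-coding genes. Thus 19.9% of Vmn1r and 61.3% of Vmn2r genes had a listed window, compared with 90.7% of all protein-coding genes. Olfactory receptors, the other large chemoreceptor family, lay between, with 450 of 1106 genes (40.7%) and a median span of 950 bp. Among members the median number of listed windows was 2 in Vmn1r and 8.5 in Vmn2r. A single window stood for 12 Vmn1r and 5 Vmn2r members. Vmn2r35 held the most, with 81.

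The sequence before the annotated start was poor in CpGs in both families. RefSeq promoters of the GRCm38.p6 build, from 250 bases before to 50 bases after the start, were matched for 206 Vmn1r and 117 Vmn2r genes. Their median number of CpGs was 1 in each family, against 13 over 21263 promoters of protein-coding genes. No CpG was present in 44 of 206 Vmn1r promoters (21.4%) and 34 of 118 Vmn2r promoters (28.8%), against 4.63% of all. In 87.9% of Vmn1r and 86.4% of Vmn2r promoters the annotated start is an ATG, against 8.13% of all, so these windows mostly precede an annotated coding start. The letters TCCTGCNA, a sequence Kaiso is known to bind, stood on either strand in 4 Vmn1r (1.94%) and 5 Vmn2r promoters (4.24%), against 4.74% of all. The letters CGCG stood in 3 Vmn1r (1.46%) and 1 Vmn2r promoter (0.847%), against 49.2% of all. A match here is a run of letters and not a binding site.

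Listed windows overlapped the promoters of 6 Vmn1r and 6 Vmn2r genes. Of the 11 such Vmn1r windows 1 was higher in the knockout library, that of Vmn1r124, and of the 12 such Vmn2r windows none was. Over all listed windows 56.5% were higher, with 37.8% at 1 CpG and 49.2% at 2 CpGs, and most of these promoter windows held 1 or 2. Most of the Vmn1r ones came from the near-identical copies Vmn1r93, Vmn1r250 and Vmn1r258. Whether promoters differ from other windows was not tested. The 2 promoters per family with the most fragments are printed. The Vmn1r pair shows how few CpGs can stand behind listed windows and how alike copies are. The Vmn2r pair is unlike, with 23 CpGs in Vmn2r29 and 3 in Vmn2r56. The sequences are in lower case, 5′ to 3′, with each CpG in capitals. All lie on the minus strand, Vmn1r93 at chr7:20139039-20139338, Vmn1r258 at chr7:22984624-22984923, Vmn2r29 at chr7:7278240-7278539 and Vmn2r56 at chr7:12733056-12733355.
Vmn1r93: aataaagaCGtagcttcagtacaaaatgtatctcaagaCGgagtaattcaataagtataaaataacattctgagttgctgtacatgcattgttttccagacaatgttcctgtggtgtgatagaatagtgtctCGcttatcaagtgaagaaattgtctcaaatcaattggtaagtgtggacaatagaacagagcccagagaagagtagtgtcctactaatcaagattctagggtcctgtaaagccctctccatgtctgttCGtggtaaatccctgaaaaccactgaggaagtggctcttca
Vmn1r258: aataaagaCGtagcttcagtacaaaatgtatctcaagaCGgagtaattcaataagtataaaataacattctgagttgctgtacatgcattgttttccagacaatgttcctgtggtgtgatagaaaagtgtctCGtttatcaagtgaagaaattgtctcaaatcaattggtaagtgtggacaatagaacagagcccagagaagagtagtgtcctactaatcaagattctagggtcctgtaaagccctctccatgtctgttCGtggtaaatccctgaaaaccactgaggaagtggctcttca
Vmn2r29: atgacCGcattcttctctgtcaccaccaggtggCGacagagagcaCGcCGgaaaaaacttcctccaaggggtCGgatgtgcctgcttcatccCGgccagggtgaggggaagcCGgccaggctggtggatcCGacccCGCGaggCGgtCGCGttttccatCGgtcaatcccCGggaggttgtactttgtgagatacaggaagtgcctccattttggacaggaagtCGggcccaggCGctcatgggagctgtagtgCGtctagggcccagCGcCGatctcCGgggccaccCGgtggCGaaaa
Vmn2r56: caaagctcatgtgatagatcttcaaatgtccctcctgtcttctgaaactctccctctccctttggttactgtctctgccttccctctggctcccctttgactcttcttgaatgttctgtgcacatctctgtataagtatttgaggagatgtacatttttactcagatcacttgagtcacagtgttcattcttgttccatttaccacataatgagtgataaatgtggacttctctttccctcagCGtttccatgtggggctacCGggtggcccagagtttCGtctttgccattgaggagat

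The Vmn1r93 and Vmn1r258 promoters differ by 2 substitutions, T125A and C135T, with the base of Vmn1r93 first and positions counted from 1 at the 5′ end. Each holds 4 CpGs, and each is identical to the promoters of other genes. These are Vmn1r114, Vmn1r126 and Vmn1r250 for Vmn1r93, and Vmn1r247 for Vmn1r258. The Vmn1r250 promoter had 1 listed window, with 30 knockout and 49 wildtype counts. The Vmn1r93 promoter had 71 knockout and 125 wildtype counts in 3 windows, and that of Vmn1r258 had 42 knockout and 101 wildtype counts in 4 windows. Both were lower in the knockout library in each window. Reads from such copies may be shared between them and this was not tested, since the sources used here do not say how multiple alignments were handled. Over the family, 83 of 206 Vmn1r promoters (40.3%) and 37 of 117 Vmn2r promoters (31.6%) were at least 95% identical to that of another member of either family.

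One of the 2 RefSeq starts of Vmn2r29 stood apart from this CpG-poor pattern, with 23 CpGs in its promoter. The other, at chr7:7247279-7247578, has an ATG at the start, no CpG and no listed window. The windows around it were named after their values were seen. The 3 adjacent windows from 7278101 to 7278400 on chromosome 7 held 14, 10 and 8 CpGs. They had 238, 203 and 155 knockout counts, against 298, 277 and 199 wildtype counts. This stretch had a log2 ratio, knockout over wildtype, of -0.55 (interval -0.86 to -0.23), under 2-fold. Of all listed windows with 5 or more CpGs, 98.9% were higher in the knockout library. These 3 windows and 1 of Vmn2r17, with 18 knockout and 43 wildtype counts, were the exceptions among 135 such Vmn2r windows. In the rest of Vmn2r29, 15 of 17 listed windows were higher, and its whole region was level at a log2 ratio of 0.08 (-0.10 to 0.27). Vmn2r56, with 3 CpGs, had 45 knockout and 81 wildtype counts in its 2 promoter windows.

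Over whole gene regions, calls went to both directions in both families. A call required 20 fragments or more, a 2-fold change either way (ratio 2 or 0.5) and an interval free of 1. A fragment is 4 window counts, since 1 read counts in several windows. The minimum was reached by 29 Vmn1r and 66 Vmn2r genes, and 17 Vmn1r and 10 Vmn2r members stayed under it. Of the 29 Vmn1r genes 3 were higher, 11 lower (37.9%) and 15 neither. Of the 66 Vmn2r genes 9 were higher (13.6%), 11 lower (16.7%) and 46 neither. Over the 19166 protein-coding genes with the minimum, 9.65% were higher and 5.68% lower. Higher shares were thus near the share over all genes, while the lower share was above it in each family. For Vmn1r the counts depended on the region and the minimum. With 5 kb on each side 20 of 91 Vmn1r genes were higher and 14 lower. With the gene span alone 0 of 12 were higher and 3 lower, and with a minimum of 40 fragments 3 of 18 were higher and 3 lower. The shares over all genes were not taken under these settings. The difference between the families was not tested.

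**Figure D1:**
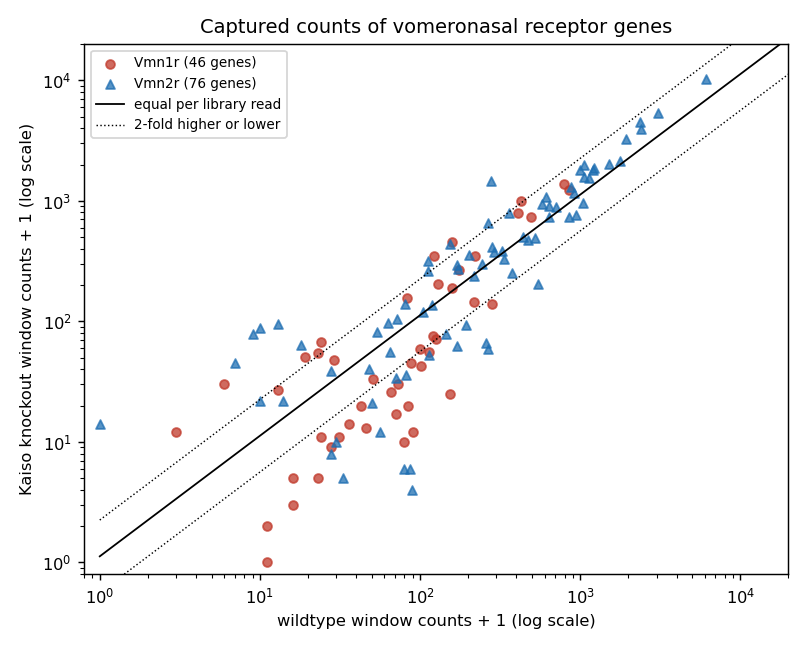
Window counts per member in the Kaiso knockout (vertical) and wildtype library (horizontal), both plus 1 on log scales, for 46 Vmn1r and 76 Vmn2r genes; lines mark equal counts per library read and 2-fold. The Vmn2r genes with the most counts, Vmn2r35 and Vmn2r97, lie just above the line of equality, and genes far below it have few knockout counts. Vmn2r59, with 1463 knockout and 276 wildtype counts, and Vmn1r88, with 995 and 425, lie over 2-fold above it.

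**Figure D2:**
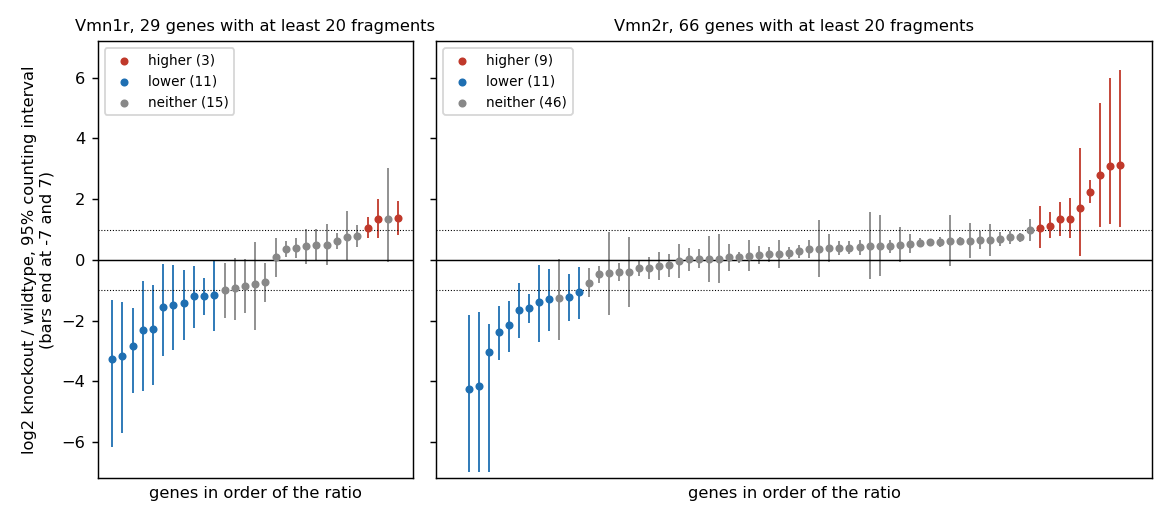
Log2 ratio of knockout over wildtype with its 95% counting interval for the 29 Vmn1r and 66 Vmn2r genes with at least 20 fragments, in order of the ratio; dotted lines mark 2-fold. In Vmn1r 11 genes are lower and 3 higher, in Vmn2r 11 are lower and 9 higher.

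These shares went with the number of windows behind a gene. Among genes with 1 to 5 listed windows and the minimum, 10 of 20 Vmn1r were lower and 1 higher, and 7 of 22 Vmn2r were lower and 4 higher. Other protein-coding genes with so few windows were lower in 412 and higher in 179 of 1372 cases. With 6 to 15 windows, 1 of 9 Vmn1r genes was lower and 2 higher, and 3 of 19 Vmn2r genes were lower and 3 higher, against 495 lower and 754 higher of 3772 others. With 16 or more windows, 1 of 25 Vmn2r genes was lower and 2 higher, against 159 lower and 905 higher of 13927 others. No Vmn1r gene had so many. Of the lower members, 10 of 11 Vmn1r and 7 of 11 Vmn2r rested on 5 windows or fewer. How far window number sets these calls was not tested.

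The centre of each family depended on how it was taken. The median log2 ratio was -0.81 in Vmn1r (quartiles -1.43 and 0.49) and 0.26 in Vmn2r (-0.36 and 0.62), against 0.31 over all protein-coding genes (0.02 and 0.55). Summed over windows, each counted once, Vmn1r had 8231 knockout and 6200 wildtype counts, a log2 ratio of 0.24 (0.14 to 0.34). Vmn2r had 61179 knockout and 41233 wildtype counts, a log2 ratio of 0.40 (0.37 to 0.44). The median and the sum of Vmn1r thus differ in sign, since its lower genes hold few counts. With a minimum of 40 fragments the Vmn1r median was 0.42 over 18 genes, of which 3 were higher and 3 lower, so the negative median rests on genes of low count. It was also positive with the gene span alone (0.24), 5 kb on each side (0.59), a deposited p under 0.001 (0.56) and windows of 2 or more CpGs (0.37). The Vmn2r median was just below 0 under 4 other scalings (-0.081 to -0.014) and -0.80 with the gene ends alone. The mean of the 29 was -0.58 in Vmn1r, and the mean of the 66 was 0.05 in Vmn2r.

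Vmn1r genes higher in the knockout library all lay on chromosome 7. Vmn1r88, from 13177719 to 13178669, had 995 knockout and 425 wildtype counts in 15 windows (log2 1.06, 0.73 to 1.40). Its windows did not move together. The 8 windows past its higher-coordinate end, from 13178801 to 13179600, had 57 to 76 knockout counts each, against 2 to 6 wildtype counts, a log2 ratio of 4.10 (3.04 to 5.41). The 4 windows inside the gene had 20 to 45 knockout counts, against 36 to 69 wildtype counts, a log2 ratio of -0.85 (-1.50 to -0.23). The 3 windows before its other end had 64 to 132 knockout and 37 to 71 wildtype counts. The direction thus changed between adjacent stretches of the same region. The strand of Vmn1r88 was not used here.

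Vmn1r83 had 455 knockout and 157 wildtype counts in 8 adjacent windows, all within the 1 kb past the end of the gene (log2 1.37, 0.83 to 1.93). Each window was higher in the knockout library. Vmn1r124 had 348 knockout and 122 wildtype counts in 5 windows (1.34, 0.73 to 1.99), all before its start. The higher windows of Vmn1r83, Vmn1r88 and Vmn1r124 thus all lay in the 1 kb beside the genes, and with the gene span alone 0 Vmn1r genes were higher. The Vmn1r124 promoter is 98.7% identical to that of Vmn1r112, so its reads may be shared.

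Lower Vmn1r genes had fewer windows and CpGs. All windows of the 11 were lower in the knockout library, and 10 of them had a mean of 2 CpGs per window or less. Vmn1r185 on chromosome 7 had 24 knockout and 153 wildtype counts in 5 windows (log2 -2.84, -4.37 to -1.59). Vmn1r191 and Vmn1r216, both in the cluster on chromosome 13, were alike. Vmn1r191 had 9 knockout and 78 wildtype counts in 2 windows (-3.28, -6.18 to -1.33), and Vmn1r216 had 11 and 89 in 3 windows (-3.18, -5.70 to -1.39). Vmn1r71 had 19 knockout and 83 wildtype counts in 4 windows (-2.30, -4.11 to -0.82). The other 7 lay between -2.30 and -1.15, among them Vmn1r193 with 138 knockout and 281 wildtype counts.

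The Vmn1r genes with the most fragments were under 2-fold. Vmn1r65 had 1375 knockout and 796 wildtype counts in 14 windows, all higher (0.62, 0.36 to 0.88). Vmn1r48 had 1225 knockout and 851 wildtype counts in 9 windows with a mean of 6.78 CpGs, all higher too (0.36, 0.10 to 0.62). Its promoter is identical to that of Vmn1r47. Both were smaller under other scalings. With autosomal counts, TMM and DESeq2 size factors Vmn1r65 had 0.35, 0.33 and 0.32, and Vmn1r48 had 0.085, 0.067 and 0.058. Within CpG classes Vmn1r65 had 0.42 and Vmn1r48 had -0.29.

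Among Vmn2r genes, Vmn2r59 was higher with the most counts. On the minus strand of chromosome 7 from 42011792 to 42058981, it had 1463 knockout and 276 wildtype counts, and each of its 29 windows was higher (log2 2.24, 1.86 to 2.63). The windows lay in several stretches along the gene, not all of which are given here. The run of 12 adjacent windows from 42048801 to 42050000 had 10 to 102 knockout counts, against 0 to 14 wildtype counts, a log2 ratio of 3.06 (2.38 to 3.81). Close to it, the 4 windows from 42050101 to 42050500 had 18 to 26 knockout and 1 to 2 wildtype counts (3.52, 1.39 to 6.97). The 4 windows from 42020701 to 42021100 had 30 to 66 knockout and 10 to 12 wildtype counts (2.11, 1.16 to 3.20). The 3 from 42032301 to 42032600 had 68 to 81 knockout and 31 to 38 wildtype counts (0.90, 0.20 to 1.63).

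The neighbouring gene Vmn2r60 held a like run, named after its values were seen. Its 11 windows from 42125301 to 42126400 had 37 to 87 knockout counts, against 10 to 20 wildtype counts (1.90, 1.38 to 2.46). A run of 19 windows of the same gene, from 42171401 to 42173300, was the longest in either family, at 2208 knockout and 1246 wildtype counts (0.66, 0.45 to 0.86). Vmn2r60 as a whole had 0.75 (0.60 to 0.89) and was not called. The promoter of Vmn2r59 is 86.7% identical to that of Vmn2r60, its closest among the members.

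**Figure D3:**
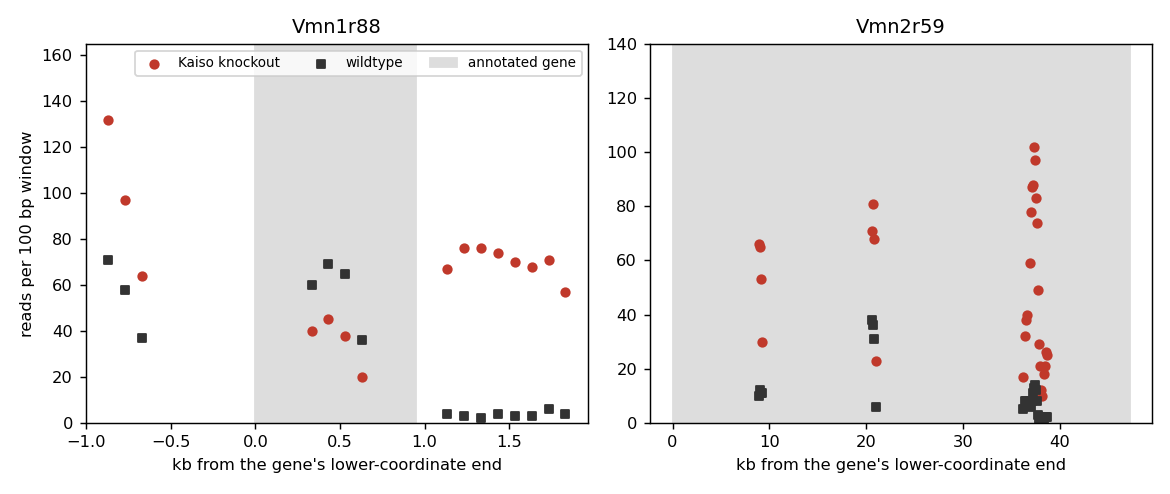
Reads per 100 bp window in the Kaiso knockout and wildtype library along Vmn1r88 (left) and Vmn2r59 (right), against distance in kb from the gene's lower-coordinate end; grey marks the annotated gene. At Vmn1r88 the 8 windows past the gene have 57 to 76 knockout and 2 to 6 wildtype counts, while the 4 inside it are lower in the knockout library; at Vmn2r59 all 29 windows are higher in it.

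The other higher Vmn2r genes of largest ratio had few counts. Vmn2r52 had 87 knockout and 9 wildtype counts in 4 windows (3.10, 1.17 to 5.99), and Vmn2r47 had 94 and 12 in 5 windows (2.80, 1.08 to 5.18). Vmn2r110, on chromosome 17, had 78 knockout and 8 wildtype counts in 5 windows (3.12, 1.07 to 6.26). Their wide intervals show how little these few fragments fix the size. The remaining 5, Vmn2r13, Vmn2r75, Vmn2r95, Vmn2r103 and Vmn2r109, lay between 1.07 and 1.72.

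Lower Vmn2r genes were near-empty in the knockout library in part. Vmn2r8 on chromosome 5 had 1 knockout count in each of 5 adjacent windows, against 13 to 21 wildtype counts (-4.26, -8.73 to -1.83). Vmn2r85 on chromosome 10 had 5 knockout and 79 wildtype counts in 4 windows (-4.15, -8.63 to -1.71). Vmn2r25 on chromosome 6 had 3 knockout and 88 wildtype counts in 4 windows, and its interval ended at -2.12. Vmn2r9, beside Vmn2r8, had 58 knockout and 266 wildtype counts in 13 windows (-2.37, -3.30 to -1.53). In Vmn2r9 the 6 windows from 108852001 to 108852600, around the annotated start on the minus strand, had 0 to 2 knockout and 11 to 24 wildtype counts. The other 7 lower genes lay between -2.16 and -1.07. Of the 11 lower Vmn2r genes 10 had lower windows only, and 10 had a mean of 2 CpGs or less.

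Most Vmn2r genes were mixed or moderately higher. Windows of both directions stood in 40 of 76 Vmn2r and in 3 of 46 Vmn1r members. A member with 1 window, as 12 Vmn1r and 5 Vmn2r members had, cannot show both. The median was 8.5 listed windows in Vmn2r members and 2 in Vmn1r members, so these counts do not compare the families at equal window number. The share over all protein-coding genes was not taken. Vmn2r35 had 10233 knockout and 6069 wildtype counts, and all of its 81 windows were higher (0.59, 0.49 to 0.68). Vmn2r97 had 5304 knockout and 3064 wildtype counts, with all of its 55 windows higher (0.62, 0.49 to 0.75). Such members were uniform in direction and under 2-fold. Of the 46 uncalled Vmn2r genes 11 had higher windows only, and 1 lower windows only. With the authors' scaling Vmn2r35 had 0.72, and within CpG classes 0.14. With autosomal counts, TMM and DESeq2 size factors it had 0.31, 0.30 and 0.29. Vmn2r97 had 0.35, 0.33 and 0.32 under these, and 0.32 within CpG classes.

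Receptors with a known ligand were mostly out of reach of the table. Vmn1r49, known to respond to the urine odorant 2-heptanone, and Vmn1r85, a receptor for sulfated oestrogens, had no listed window. Vmn2r26, which detects peptides of the major histocompatibility complex, and Vmn2r116, the receptor of the male tear peptide ESP1, had none either. Vmn1r89, a second receptor for sulfated steroids, had 1 window with 1 knockout and 10 wildtype counts. Vmn2r88, a haemoglobin receptor, had 4 knockout and 32 wildtype counts in 2 windows, and was under the minimum.

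The genes Vmn2r1 to Vmn2r7 on chromosome 3 belong to the group of Vmn2r receptors that is expressed broadly beside the other ones. Vmn2r6 had no listed window and no other member was called. Vmn2r1 had 2003 knockout and 1512 wildtype counts (0.24, 0.04 to 0.43), and Vmn2r2, whose region shares 31 windows with it, 733 and 639 (0.03, -0.28 to 0.35). Vmn2r3 had 326 knockout and 332 wildtype counts (-0.19, -0.65 to 0.26), and Vmn2r4 235 and 216 (-0.05, -0.60 to 0.51). Vmn2r5 had 493 knockout and 524 wildtype counts (-0.26, -0.62 to 0.11), and Vmn2r7 372 and 288 (0.20, -0.26 to 0.67). Thus 5 of these 6 intervals include 0. Vmn2r1, Vmn2r2 and Vmn2r7 turned below 0 under other scalings. Vmn2r1 had -0.03 with autosomal counts, -0.05 with TMM, -0.06 with DESeq2 size factors and -0.02 within CpG classes. In the same order Vmn2r2 had -0.24, -0.26, -0.27 and -0.08, and Vmn2r7 had -0.07, -0.09, -0.10 and -0.45.

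Genomic clusters, with members at most 1 Mb apart, differed in direction. In the cluster of 36 Vmn1r genes on chromosome 13, from 22087878 to 23250323, 5 of 25 listed windows were higher (share 6.83 to 40.7%), and 4 of 6 genes with the minimum were lower. In the cluster on chromosome 17 from 17703941 to 21314886, with 14 Vmn1r and 22 Vmn2r genes, 85.4% of 123 windows were higher (77.9 to 91.1%), and 4 of 10 genes were higher and 1 lower. Over all protein-coding genes with the minimum 9.65% were higher and 5.68% lower, and of others with 1 to 5 listed windows 412 of 1372 were lower. At the shares of all listed windows by CpG number, 50.7% of windows would be higher in the cluster on chromosome 13. In that on chromosome 17 it would be 62.3%. On chromosome 7 the cluster from 7212996 to 13220289 had 82.5% of 240 windows higher, against 67.8% at those shares. That of 86 Vmn1r genes from 20101158 to 24055691 had 43.3% of 30 windows higher, against 52.5%. Those from 41399732 to 43048106 and from 84940169 to 87037968, of 8 and 15 Vmn2r genes, had 73.5% of 181 and 59.4% of 64 windows higher, against 59.8% and 55.4%. These clusters on chromosome 7, in the order given, had 4 higher and 1 lower of 12 genes with the minimum, 1 and 2 of 8, 1 and 0 of 8, and 1 and 0 of 6. On chromosomes 3, 5 and 6 the Vmn2r clusters had 44.2% of 95, 55.9% of 59 and 41.6% of 113 windows higher, against 52.6%, 56.0% and 54.2%. Their genes were 0 higher and 0 lower of 6, 1 and 3 of 6, and 0 and 2 of 8. A cluster of 4 Vmn2r genes on chromosome 10 from 79148816 to 79492154 was named after its values were seen. It had 9.76% of 41 windows higher (2.72 to 23.1%), against 49.2% at those shares, with Vmn2r80, Vmn2r81 and Vmn2r83 lower. Neighbouring windows share reads, so these intervals are too narrow, and differences between clusters were not tested.

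Direction followed the number of CpGs in the families as in the whole table. With 1 CpG, 21 of 61 Vmn1r windows (34.4%) and 160 of 352 Vmn2r windows (45.5%) were higher, against 37.8% of all listed windows. With 2 CpGs 26 of 52 Vmn1r and 125 of 236 Vmn2r windows were higher, against 49.2% of all, and with 3 CpGs 18 of 29 and 119 of 153, against 71.0%. With 4 CpGs all 13 Vmn1r and 89 of 92 Vmn2r windows were higher, and with 5 or more all 15 Vmn1r and 131 of 135 Vmn2r windows. In total 54.7% of 170 Vmn1r windows (46.9 to 62.3%) and 64.5% of 968 Vmn2r windows (61.4 to 67.5%) were higher, against 56.5% of all. At the shares of all listed windows by CpG class, 56.5% would be higher in Vmn1r and 59.5% in Vmn2r. The Vmn1r windows thus lay within counting error of their CpG numbers, and the Vmn2r windows lay above theirs, without allowance for reads shared by neighbours. The Vmn2r share holds all 81 windows of Vmn2r35 and all 55 of Vmn2r97, each of them higher. Without members whose promoter is at least 95% identical to another's, 60.9% of Vmn2r windows were higher. For that subset the share by CpG class was not taken.

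**Figure D4:**
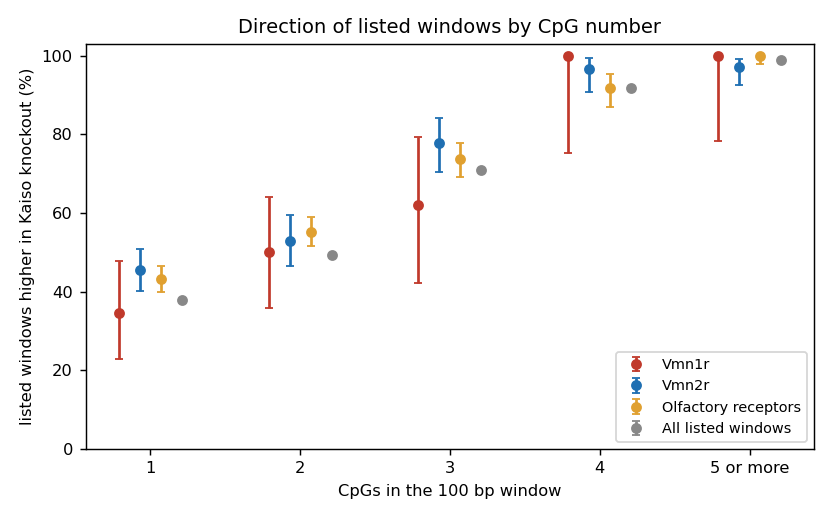
Share of listed windows higher in the Kaiso knockout library by CpGs per window, for Vmn1r, Vmn2r, olfactory receptors and all listed windows, with Clopper-Pearson 95% intervals. The share climbs with CpG number in each, with 34.4% of Vmn1r and 45.5% of Vmn2r windows at 1 CpG and nearly all at 5 or more.

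The directions differed in level. Higher windows had medians of 76 knockout and 37 wildtype counts in Vmn1r, and of 101 knockout and 56 wildtype counts in Vmn2r. Lower windows had medians of 6 knockout and 28 wildtype counts in Vmn1r, and of 6 knockout and 22 wildtype counts in Vmn2r. Over all listed windows the lower ones had medians of 10 knockout and 29 wildtype counts. Windows without a knockout count numbered 2 in Vmn1r and 15 in Vmn2r, and windows without a wildtype count 0 and 6. The deposited RPKM had medians of 3.50 knockout and 3.42 wildtype in Vmn1r windows, and of 5.07 knockout and 4.10 wildtype in Vmn2r windows. The deposited relative methylation score (its scale is not known here) had medians of 0.133 knockout and 0.170 wildtype in Vmn1r, and of 0.145 knockout and 0.161 wildtype in Vmn2r. Over all listed windows the RPKM medians were 4.06 knockout and 4.45 wildtype, and the score medians 0.153 and 0.186. In both families the RPKM median was thus higher in the knockout library and the score median lower.

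Along the genes, listed windows of Vmn2r gathered between 60% and 80% of the span from the start. For the 117 Vmn2r genes with a strand, that stretch had 322 windows, 5.15 per 10 kb, of which 74.2% were higher (69.1 to 78.9%). The stretch up to 20% had 131 windows, 2.09 per 10 kb, with 52.7% higher (43.8 to 61.5%). The former holds long runs of single genes, such as 15 higher windows of Vmn2r35 from 7795201 to 7796700 and 12 of Vmn2r97 from 18935501 to 18936700. How many genes carry the peak was not taken. Neighbouring windows share reads, so these intervals are too narrow. Mean CpGs per window were 2.84 from 60% to 80% and 2.26 up to 20%. How far CpG number sets this difference in direction was not tested. In the 1 kb before the start stood 12 windows, of which 1 was higher. The most Vmn1r windows lay after the gene, with 61 in the 1 kb past its end, 2.96 per 10 kb, and 29 of them higher. In the 1 kb before Vmn1r starts there were 17 windows, of which 5 were higher. Over all listed windows 56.5% were higher. Windows in 2 overlapping genes count for both here. Exons were not used here, so no part of the receptor can be assigned to these stretches.

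**Figure D5:**
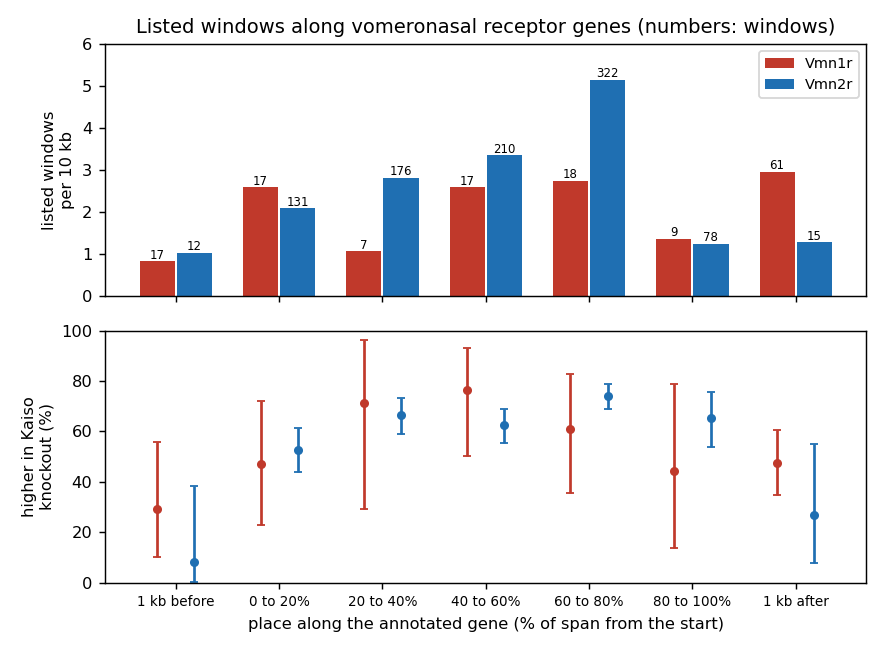
Listed windows per 10 kb (top, with the number of windows on each bar) and share higher in the Kaiso knockout library with Clopper-Pearson 95% intervals (bottom), by place along the gene from start to end, for 206 Vmn1r and 117 Vmn2r genes with a strand. Vmn2r windows are densest from 60% to 80% of the span at 5.15 per 10 kb, and Vmn1r windows in the 1 kb after the gene at 2.96. For Vmn1r the stretch from 60% to 80% is close, at 2.74.

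Genes that act with these receptors were mixed. Of 14 genes of vomeronasal signalling, all with the minimum, 2 were higher and 0 lower, against 9.65% and 5.68% over all protein-coding genes. Their median was 0.18 (log2), against 0.31 over all genes, with 9 ratios above 0 and 5 below. Of their 2040 listed windows 46.9% were higher, against 55.1% at the shares of all listed windows by CpG number. The lowest were Kcnj3 at -0.66 (-0.84 to -0.49), Ano1 at -0.34 (-0.44 to -0.24) and Ano2 at -0.16 (-0.22 to -0.09), none of them called. Trpc2, the transduction channel, had 5640 knockout and 2858 wildtype counts (0.81, 0.68 to 0.94). Gnai2 had 3357 knockout and 2555 wildtype counts (0.23, 0.08 to 0.38), and Gnao1 13712 and 12094 (0.01, -0.06 to 0.08). Gng8, a G protein gamma subunit gene, had 120 knockout and 27 wildtype counts (1.98, 0.75 to 3.44), and Cnga4, an olfactory channel subunit gene, 1055 and 370 (1.34, 1.00 to 1.70).

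Of 9 H2-Mv genes, expressed in Vmn2r neurons, 4 had the minimum and 3 were higher. Over all protein-coding genes 9.65% were higher, and 754 of 3772 others with 6 to 15 windows. H2-M10.3 had 285 knockout and 45 wildtype counts (2.49, 1.58 to 3.55), and H2-M10.4 had 380 and 90 (1.91, 1.24 to 2.64). Members under the minimum went the other way. H2-M1 had 16 knockout and 63 wildtype counts in 4 windows, 0 of them higher (-2.15, -4.19 to -0.51). H2-M9 had 2 and 11 in 1 window. Vomeronasal formyl peptide receptors had 1 listed window, in Fpr-rs6, over 5 genes. Of 37 pheromone ligand genes, major urinary proteins (Mup) and exocrine gland peptides (Esp), 17 had the minimum, and 12 were lower and 1 higher. Over all protein-coding genes 9.65% were higher and 5.68% lower. Among other protein-coding genes 412 of 1372 were lower with 1 to 5 listed windows, and 495 of 3772 with 6 to 15. The 12 lower ligand genes had 4 to 9 listed windows each. All 12 were Mup genes, such as Mup22 with 37 knockout and 192 wildtype counts (-2.54, -3.74 to -1.51) and Mup7 with 76 and 239 (-1.82, -2.65 to -1.06). The uncalled Mup5, with 2662 knockout and 1443 wildtype counts and all of its 18 windows higher (0.72, 0.53 to 0.90), and Mup20, with 1181 and 735 (0.52, 0.25 to 0.79), went the other way. So did Mup21 at 0.43 (-0.30 to 1.18). Mup5 and Mup20 held most of the counts, and the summed log2 ratio of the ligand list was -0.06 (-0.18 to 0.05). The higher one was Esp16, with 79 and 12 (2.55, 0.79 to 4.95). Mup genes are near-identical copies, so their reads may be shared and the 12 are not independent.

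Set beside the members, olfactory receptors had 338 genes with the minimum, of which 26.3% were higher and 29.3% lower, with a median of 0.41. Pseudogenes of the families, added after the members' values were seen, had listed windows in 27 of 142 Vmn1r and 63 of 148 Vmn2r cases. The 16 Vmn1r pseudogenes that reached the minimum had 2 higher and 2 lower, and a median of 0.46. Among the 48 Vmn2r pseudogenes there were 8 higher and 10 lower, and the median was 0.56. These differences from the genes were not tested.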

How the data were processed

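Methylated testis DNA was captured with the MBD2 domain and sequenced in 1 Kaiso knockout and 1 wildtype library. Bowtie2 2.2.6, edgeR and mm10 are named in the submitters' processing notes. Column names are those of MEDIPS, per the file headers. The deposited counts are whole reads per 100 bp window, none pooled. The authors' RPKM is that count scaled by window length and library reads, and count over RPKM gave the library sizes. The authors' relative methylation score has no stated scale. The authors' log2 fold change is wildtype over knockout and lay 0.13 from the RPKM ratio. The deposited p-value is under 0.05 in each window, with a summed count of at least 10. Another 10 columns of values per sample or group were not used.

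Windows wholly within a gene span plus 1 kb were summed over all 21887 protein-coding genes of the RefSeq GRCm38.p6 table, the assembly of mm10, and members were read from that table. Sums were divided by 4, a divisor chosen here, and scaled by library reads. Log2 ratios are knockout over wildtype. A library under 1 fragment was set to 3 fragments (12 window counts) for the ratio. Calls were tested on simulated data. Alternatives changed scaling (with edgeR 4.0.16 TMM and DESeq2 1.42.0), minimum, fold, region, windows and divisor. All symbols of the lists were matched. Python 3.11.15, pandas 2.3.3 and scipy 1.17.1 were used.

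Named members were, per family, up to 4 higher and 4 lower genes with the interval bound farthest from 0, the 2 with most fragments, receptors with a known ligand and Vmn2r1 to Vmn2r7. Clusters had at least 5 genes with the minimum. Members and lists were chosen with earlier results of these data known. The list of transcription factor genes is not reported here.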

Additional observations from a re-analysis of the deposited data

How the results depend on the processing

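The main values were a median log2 ratio of -0.81 in Vmn1r and 0.26 in Vmn2r, a difference of -1.07, 3 higher and 11 lower Vmn1r genes, 9 higher and 11 lower Vmn2r genes, and 54.7% and 64.5% of windows higher. The table is preselected, there is 1 library per genotype, and reads count in several windows, so each count depends on settings chosen here. Of the alternative values for these results, 81 stayed within their limits, 46 moved and 17 reversed. Of those for single named genes, 104 stayed and 21 moved. The cause was not tested unless stated.

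The Vmn2r median reversed to -0.014 with autosomal counts, -0.032 with TMM, -0.041 with DESeq2 size factors and -0.081 within CpG classes. These scalings moved the median of all genes by -0.27, -0.29, -0.30 and -0.28. Autosomal counts, TMM and DESeq2 size factors each gave 2 higher and 15 lower Vmn1r genes, and 6 higher and 13 lower Vmn2r genes. A count of genes within 1.5-fold of its main value was taken as staying within its limits, so these count as unmoved. Scaling within CpG classes gave 2 higher and 14 lower Vmn1r genes, and 4 higher and 12 lower Vmn2r genes. It left 44.1% of Vmn1r and 50.5% of Vmn2r windows higher. With a minimum of 40 fragments the Vmn1r median was 0.42 and the difference 0.14, with 3 lower Vmn1r genes and 5 higher and 7 lower Vmn2r genes. With a divisor of 6 they were 0.36 and 0.010, with the same counts of 3, 5 and 7, and a divisor of 2 gave 6 higher Vmn1r genes. A fold of 1.5 gave 5 higher Vmn1r and 19 higher Vmn2r genes, and a fold of 4 gave 0 higher and 5 lower Vmn1r and 4 higher and 5 lower Vmn2r genes.

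With the gene span alone the Vmn1r median was 0.24, the difference -0.036, and 0 Vmn1r genes were higher and 3 lower. With 5 kb on each side the Vmn1r median was 0.59, the Vmn2r median 0.56 and the difference 0.036, with 20 higher Vmn1r and 26 higher Vmn2r genes, and 74.2% of Vmn1r and 69.7% of Vmn2r windows higher. With gene ends alone the Vmn2r median was -0.80, the difference -0.089, 1 Vmn2r gene was higher and 5 lower, and 29.8% of Vmn2r windows were higher. With a deposited p under 0.001 the Vmn1r median was 0.56, the Vmn2r median 0.71 and the difference -0.16, with 4 lower Vmn1r genes and 67.3% of Vmn1r and 75.3% of Vmn2r windows higher. With windows of 1 CpG the Vmn1r median was 0.12, the Vmn2r median -0.064 and the difference 0.18. There 1 Vmn1r gene was higher and 3 lower, 3 Vmn2r genes were higher and 6 lower, and 34.4% of Vmn1r and 45.5% of Vmn2r windows were higher. With 2 or more CpGs the Vmn1r median was 0.37, the Vmn2r median 0.45 and the difference -0.074, with 2 lower Vmn1r and 5 lower Vmn2r genes, and 66.1% of Vmn1r and 75.3% of Vmn2r windows higher. Without members whose promoter is at least 95% identical to another's, an alternative added after seeing the data, 60.9% of Vmn2r windows were higher. No paired analysis was possible because each genotype has 1 library, and none could be left out. With no minimum 3 Vmn1r genes were higher and 12 lower, and 10 Vmn2r genes were higher and 13 lower.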
